A study of Trichoderma atroviride with 42 samples.

Results

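The genes described here are 162 genes of the filamentous fungus Trichoderma atroviride that carry no product text in the deposited tables and were at least 2-fold higher late after both kinds of strong damage, but not soon after a cut. They were chosen by their measured values, on the scale log2(group mean CPM + 1), where CPM is the read count scaled to a common library size. A member had no product text, its level 8 h after injury and 8 h after feeding by fly larvae each lay at least 1 above the late control, and its level 30 min after injury lay less than 1 above the early control. The rule took 162 of the 11786 genes in the count table, which is 1.82% of the 8921 genes without a text. Product texts came only from the authors' table of genes changed 30 min after injury. Of the members, 157 were absent from that table and 5 were listed there without a text, so having no text mostly means not having been called by the authors at that time.

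Trichoderma species are soil fungi used against plant pathogens, and their mycelium is food for many small animals. A wounded colony of this genus is known to seal and regrow its severed hyphae within hours and later to form aerial hyphae and conidia, the asexual spores, along the wound. Small secreted proteins such as hydrophobins coat those aerial structures. No role is given below to any member, since none is annotated in the sources used here, and the members are called by their gene IDs without the ending of the transcript model.

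The study sequenced RNA from wild-type mycelium grown for 36 h in the dark at 27 °C on cellophane over potato dextrose agar. In the Dm groups larvae of Drosophila melanogaster fed on the colony for 10 min and were then removed, in the MI groups the mycelium was cut with a scalpel (mechanical injury), and in the Of groups the collembola Orthonychiurus folsomi fed for 10 min. Mycelium of each was collected 30 or 90 min or 4 or 8 h later, and CT8 and CT0 were untreated plates opened for 2 min, 1 late and 1 early. CT0 is labelled as time 0, while the design text places the early control at 30 min. Each of the 14 groups held 3 libraries, which the design text calls independent biological replicates, each a pool of 3 technical ones.

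The 42 libraries held between 1152096 and 5398093 counts. The 4 shallowest were replicate 2 of Dm_8h, replicate 3 of Dm_90min, replicate 1 of Of_30min and replicate 2 of CT0, and in 3 of these a single gene outside the members, Tatro_002410, took 12.5% to 16.9% of the counts. Replicates correlated least in Dm_90min (lowest r across genes 0.951), Dm_8h (0.954) and CT0 (0.965). Of 27 genes whose text names an actin, tubulin, chitin synthase or elongation factor, parts of growing hyphae, none was at 0 in any library. Their summed level was 11850 to 12560 CPM in Dm_4h and 10170 to 10910 CPM in MI_4h, against 15910 to 16770 CPM in Of_4h, and the part of this difference in the results below was not tested. These 27 genes have a text because they are in the authors' 30 min injury table, so they were partly chosen on these samples.

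Among themselves the members spanned a wide range of abundance. Averaged over the 9 groups that the rule did not use, the median member stood at 5.54 CPM, with quartiles at 1.92 and 14.0 CPM, and 53 members exceeded 10 CPM. One gene, Tatro_004257, averaged 8080 CPM, and only 1 other member exceeded 100 CPM. In Dm_8h the members took 2.26% to 3.50% of all counts and in MI_8h 1.73% to 1.80%, against 0.303% to 0.374% in CT8. Without Tatro_004257 the shares were 0.778% to 0.892% in Dm_8h and 0.591% to 0.721% in MI_8h, against 0.148% to 0.169% in CT8. In RNA from whole mycelium, fewer cells of a type and less RNA per cell cannot be told apart.

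The values that chose the members are given as a description only. The median member lay 1.87 above CT8 in Dm_8h (range 1.07 to 5.50 on the log2 scale) and 1.45 above CT8 in MI_8h (1.01 to 4.31). The difference was the larger of the 2 after larvae in 141 members and after injury in 21. Of all tested genes, too, more lay at least 1 above CT8 in Dm_8h (3.89%) than in MI_8h (2.51%). All 162 members had every MI_8h library above every CT8 library (21.7% of all tested genes did), and 158 had every Dm_8h library above them (18.5% of all). In MI_30min the median member lay 0.15 below CT0, and 104 members were below CT0. Just inside the threshold were Tatro_010097 with a smaller difference of 1.01 and Tatro_011514 and Tatro_005264 with 1.01 each, and just outside were Tatro_005979 with 0.999 and Tatro_009208 and Tatro_009316 with 0.997 each. Another 11 genes without a text passed both thresholds at 8 h but were already at least 1 above CT0 in MI_30min.

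**Figure D1:**
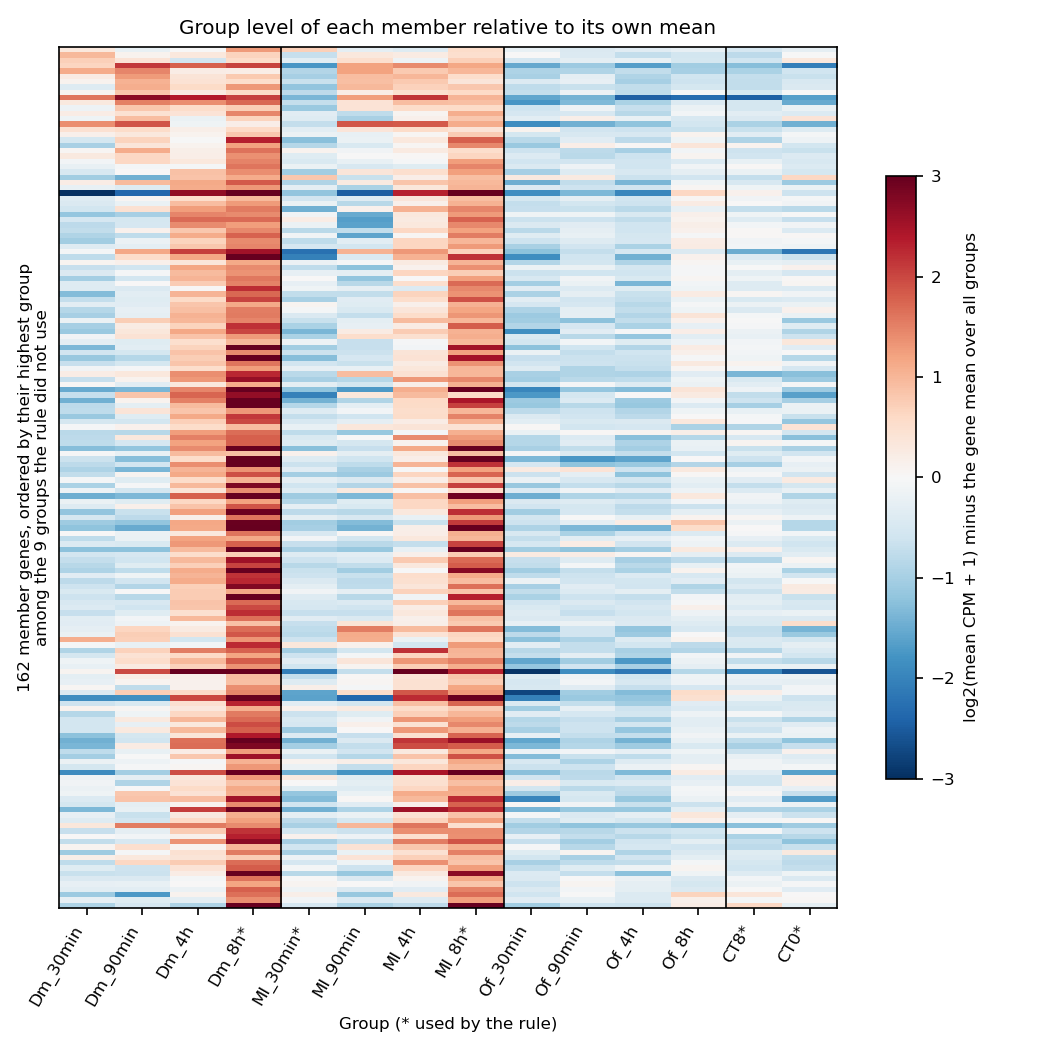
Level of each of the 162 members (rows) in each group (columns), as log2(group mean CPM + 1) minus the gene's own mean over the 14 groups. Asterisks mark the 5 groups that the rule used. Most rows are high in the 4 h and 8 h columns of Dm and MI, and pale or blue across the Of and control columns.

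Away from the groups that chose them, the members were highest at 4 h after larvae or injury. Among the 9 other groups, the highest mean fell in Dm_4h for 85 members (52.5%, against 13.1% of all tested genes) and in MI_4h for 44 (27.2%, against 7.42%). The lowest fell in Of_30min for 47 members (29%, against 12.5%) and in Of_4h for 38 (23.5%, against 8.85%). No member had its highest mean in Of_30min or Of_4h, against 13.9% and 9.67% of all tested genes.

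The median member climbed in steps after both damages, but the rule fixed part of this climb in advance. After larvae it stood at 2.07, 2.71, 3.54 and 4.62 on the log2(CPM + 1) scale at the 4 times in order, and after injury at 1.88, 2.33, 3.26 and 4.11. After O. folsomi it stood at 1.90, 2.02, 1.89 and 2.53 at the same times, and in CT8 and CT0 at 2.29 and 2.21. The 8 h levels after larvae and injury, the earliest injury level and both control levels come from groups that chose the members. In groups the rule did not use, the median member rose from 2.07 to 3.54 after larvae and from 2.33 to 3.26 after injury. The median of all tested genes stayed between 5.20 and 5.29 in every group, so most members were scarce transcripts that remained below the typical gene even at 8 h.

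**Figure D2:**
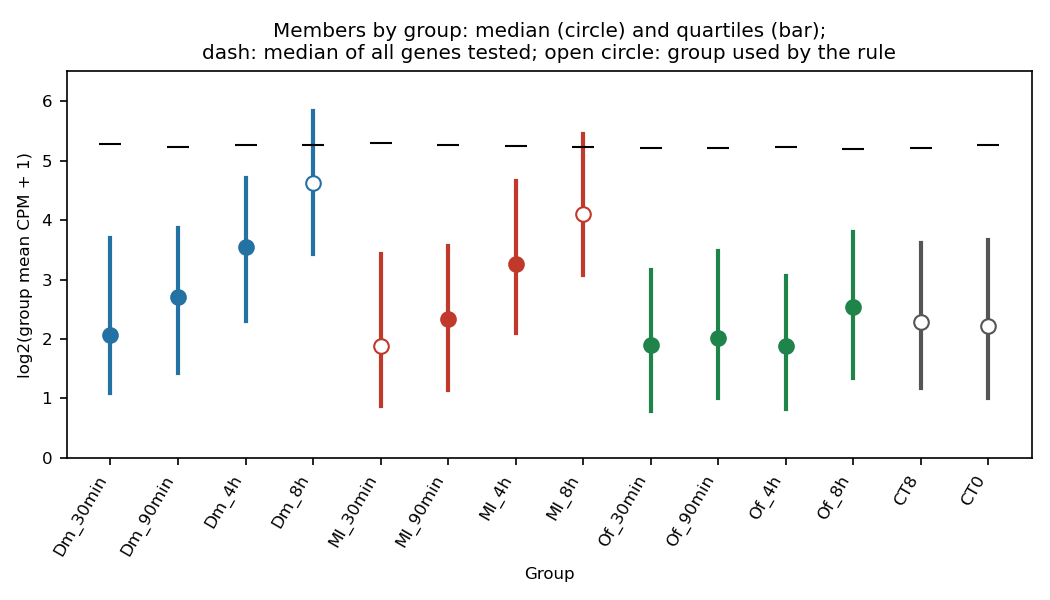
Level of the members by group on the log2(group mean CPM + 1) scale, with the median as a circle, the quartiles as a bar, and the median of all tested genes as a black dash. Open circles are groups that the rule used. The member median reaches 4.62 in Dm_8h and 4.11 in MI_8h and stays at 2.53 or below in every Of and control group.

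Against O. folsomi at 4 h, where neither group was used to choose members, most members were higher after both damages. In Dm_4h 127 of 161 tested members were higher than in Of_4h (13.4% of all genes tested were), with a median log2 fold change of 1.76. In MI_4h 123 were higher than in Of_4h (16.8% of all), with a median of 1.55. Both comparisons share the Of_4h libraries, so their counts are not independent of each other. By edgeR's quasi-likelihood test no member was lower in either comparison, none was lower at an unadjusted p under 0.05 (18.1% of all genes tested were in Dm_4h and 21.3% in MI_4h), and DESeq2 also called 0. Every damaged library lay above every Of_4h library for 131 of the 161 members in Dm_4h (22.3% of all genes tested) and also for 131 in MI_4h (26.1%). Among the called members this held for 121 of the 127 (95.3%, against 95.4% of all genes called higher) and for 121 of the 123 (98.4%, against 96.9%), shares near those of all called genes. With the 4 members that had no count in Of_4h set to a lower bound, from 3 counts over that group, the medians were 1.75 and 1.47. The 1 member that was not tested, Tatro_006951, had too few counts.

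Among members with at least 10 CPM at 4 h after damage, the largest differences from Of_4h belonged to Tatro_007210 and Tatro_000296. Tatro_007210 had 77.9, 86.6 and 47.8 CPM in Dm_4h and 146, 61.6 and 166 CPM in MI_4h, against 0.296, 0.525 and 1.33 CPM in Of_4h. It was close to absent after O. folsomi, and every damaged library lay above every Of_4h library. The log2 fold change was 6.45 ± 0.53 (SE) for larvae and 7.28 ± 0.50 for injury (adjusted p 5.38e-11 and 5.65e-13), and both rested in part on how low Of_4h was, since without its replicate 3 they were 7.28 and 8.11. Tatro_000296 had 42.2, 48.0 and 38.7 CPM in Dm_4h and 43.4, 24.1 and 41.3 CPM in MI_4h, against 0.593, 0.787 and 0.222 CPM in Of_4h. All damaged libraries lay far above all grazed by collembola, with log2 fold changes of 6.29 ± 0.54 for larvae and 6.05 ± 0.54 for injury (adjusted p 7.47e-11 and 9.32e-11).

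Abundant members with smaller differences mostly passed as well. Tatro_001670 had 158, 137 and 160 CPM in Dm_4h and 90.3, 75.8 and 98.0 CPM in MI_4h, against 48.0, 42.8 and 44.9 CPM in Of_4h. The 3 groups did not overlap, and the log2 fold changes from Of_4h were 1.75 ± 0.18 for larvae and 0.96 ± 0.17 for injury (adjusted p 2.22e-09 and 4.94e-05). Tatro_009241 was an abundant member that did not pass in either comparison. It had 128, 122 and 91.8 CPM in Dm_4h and 108, 126 and 126 CPM in MI_4h, against 66.4, 87.9 and 82.5 CPM in Of_4h (adjusted p 0.186 and 0.0964).

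Between 90 min and 4 h about as many members rose after larvae as after injury. In Dm_4h 83 were higher than in Dm_90min (13.3% of all genes tested were) and 6 were lower (13.3%), with a median log2 fold change of 0.94. In MI_4h 92 were higher than in MI_90min (13.6% of all) and 2 were lower (13.1%), with a median of 1.01. These courses share no libraries. Rises in both numbered 68, which is 81.9% of the larval list and 73.9% of the injury list (of all genes tested 579 or 6.3% rose in both, which is 47.4% and 46.5% of the lists of all genes), 15 passed upward after larvae and not after injury, 24 after injury and not after larvae, and 55 of the 162 members in neither. Without the 4 shallowest libraries 76 rose and 4 fell after larvae, and 98 rose and 2 fell after injury. Leaving out single libraries gave totals of 73 to 83 called after larvae and 71 to 98 after injury.

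**Figure D3:**
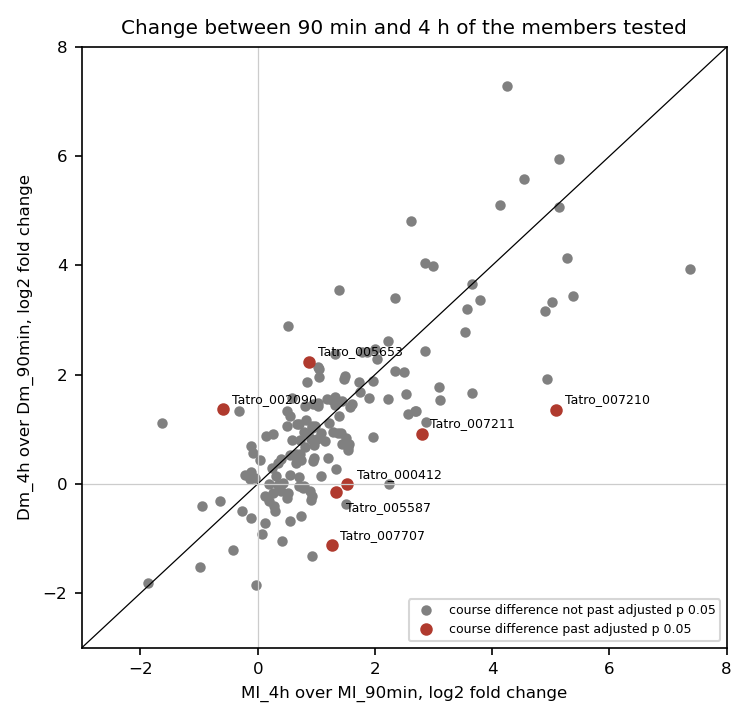
Log2 fold change of the 161 tested members between 90 min and 4 h after larvae (vertical axis) and after injury (horizontal axis), with the line of equal change. Red points, labelled, are the 7 members whose larval and injury changes differed at an adjusted p under 0.05. Most points lie right of and above 0, and 5 of the 7 red points lie below the line.

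Among members with at least 10 CPM at 4 h, the steepest rises began from levels at or below those of the controls. Tatro_004123 had 0.804, 3.84 and 5.78 CPM in Dm_30min, 9.55, 6.14 and 5.10 in Dm_90min, 297, 226 and 235 in Dm_4h and 1362, 1178 and 1252 in Dm_8h. After injury it had 11.4, 22.0 and 17.0 CPM at 30 min, 3.71, 10.8 and 4.14 at 90 min, 167, 167 and 265 at 4 h and 999, 771 and 568 at 8 h. CT8 held 66.9, 39.6 and 23.4 CPM and CT0 21.9, 46.1 and 7.73 CPM. So the early libraries of both damages lay within or below the range of the controls, and the 4 h and 8 h ones above it. The log2 fold change of 4 h over 90 min was 5.06 ± 0.43 after larvae and 5.14 ± 0.43 after injury (adjusted p 1.2e-10 and 4e-11).

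Tatro_005386 followed the same shape at a lower level. It had 48.5, 33.6 and 42.5 CPM in Dm_4h against 2.39, 2.81 and 0.850 in Dm_90min, and 55.8, 32.5 and 59.5 CPM in MI_4h against 1.37, 0 and 1.95 in MI_90min. The log2 fold changes were 4.13 ± 0.40 and 5.27 ± 0.40 (adjusted p 1.89e-09 and 6.42e-12). The gene with the neighbouring ID, Tatro_005385, carries the text of a cytidine deaminase. Tatro_011750 had 14.9, 13.3 and 11.5 CPM in Dm_4h against 0.868, 0.767 and 0.850 in Dm_90min (3.93 ± 0.64, adjusted p 2e-05). In MI_4h it had 22.0, 9.10 and 27.1 CPM, while the 3 MI_90min libraries together held 1 count. The ratio in the injury course was 230, with a counting interval (exact, 95%) of 41 to 9120, so its size is poorly known.

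The members that fell between 90 min and 4 h were few. Tatro_001862 and Tatro_009654, named after their values were seen, fell in both courses. Tatro_001862 had 0.346, 0.828 and 1.20 CPM in Dm_4h against 2.60, 3.07 and 4.25 in Dm_90min, and 0.404, 2.32 and 1.11 CPM in MI_4h against 7.42, 3.23 and 3.17 in MI_90min, before standing at 4.77 to 6.10 CPM in Dm_8h and 2.03 to 4.20 CPM in MI_8h. The log2 fold changes were -1.81 after larvae and -1.86 after injury (adjusted p 0.0211 and 0.000996), and its lowest larval mean was at 4 h. The larval call was lost without replicate 1 of Dm_4h (-1.50, adjusted p 0.0955) or without the 4 shallowest libraries (0.0531), and the injury call without replicate 1 of MI_90min (-1.27, adjusted p 0.0725), and the injury change was -2.60 without replicate 2 of MI_4h. Tatro_009654, at 0 to 4.73 CPM in every library, changed by -1.53 after larvae and -0.98 after injury (adjusted p 0.0228 and 0.0434). It lost its injury call without any 1 of the 6 libraries (adjusted p 0.0534 to 0.164) and its larval call without replicate 2 of Dm_90min or 2 or 3 of Dm_4h (0.0575 to 0.119), and both calls with DESeq2 (0.0607 and 0.115). The gene with the next ID below, Tatro_001861, is also a member and rose between 90 min and 4 h after larvae (1.25 ± 0.25, adjusted p 0.000242).

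A minority of members was high before 4 h. Between 30 and 90 min after larvae 47 members rose (10.6% of all genes tested) and 2 fell (8.37%), with a median of 0.52. The other 4 of the 6 members that fell in the later larval step, Tatro_004448, Tatro_006515, Tatro_007707 and Tatro_000380, had their highest larval mean at 90 min. The called total of 49 was 25 without replicate 2 of Dm_30min, 29 without its replicate 3 and 29 without replicate 1 of Dm_90min. It was 41 without the 4 shallowest libraries. The 2 that fell were Tatro_002709 (12.8, 4.86 and 10.2 CPM in Dm_90min against 17.3, 19.2 and 16.5 in Dm_30min; log2 fold change -0.94 ± 0.26, adjusted p 0.0111) and Tatro_001221 (-0.70 ± 0.25, adjusted p 0.04). The call on Tatro_002709 was lost without replicate 2 of Dm_90min (-0.55, adjusted p 0.145). The call on Tatro_001221 was lost without any 1 of 5 of the 6 libraries, with adjusted p 0.0533 to 0.136, and without the 4 shallowest libraries (0.135). With only the compared groups in the fit both calls were lost (0.145 and 0.188).

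Tatro_004257, the most abundant member, was already high at 90 min. After larvae it had 10947, 4353 and 6006 CPM at 30 min, 17453, 12312 and 29311 at 90 min, 15647, 16961 and 14803 at 4 h and 12965, 29245 and 13843 at 8 h. After injury it had 1306, 1407 and 1369 CPM at 30 min, 7452, 9711 and 14612 at 90 min, 13108, 11582 and 11666 at 4 h and 9696, 10220 and 10737 at 8 h. All Of libraries held 1237 to 2797 CPM, CT8 1569 to 2046 and CT0 824 to 1475. Every Dm_30min library thus already exceeded every Of and control library, whereas MI_30min lay within their range. The 2 highest values, 29311 and 29245 CPM, came from Dm_90min replicate 3 and Dm_8h replicate 2, both among the 4 shallowest libraries.

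In the fit, Tatro_004257 rose by 1.47 ± 0.29 between Dm_30min and Dm_90min (adjusted p 0.000393, or 0.0948 with only these groups in the fit) and did not pass between 90 min and 4 h in either course (adjusted p 0.443 after larvae and 0.663 after injury). At 4 h it was 3.44 ± 0.31 above Of_4h after larvae and 3.05 ± 0.31 after injury (adjusted p 2.45e-10 and 1.26e-09). Its neighbour by ID, Tatro_004256, carries the text of an AWS domain, a motif found next to SET domains of histone methyltransferases.

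**Figure D4:**
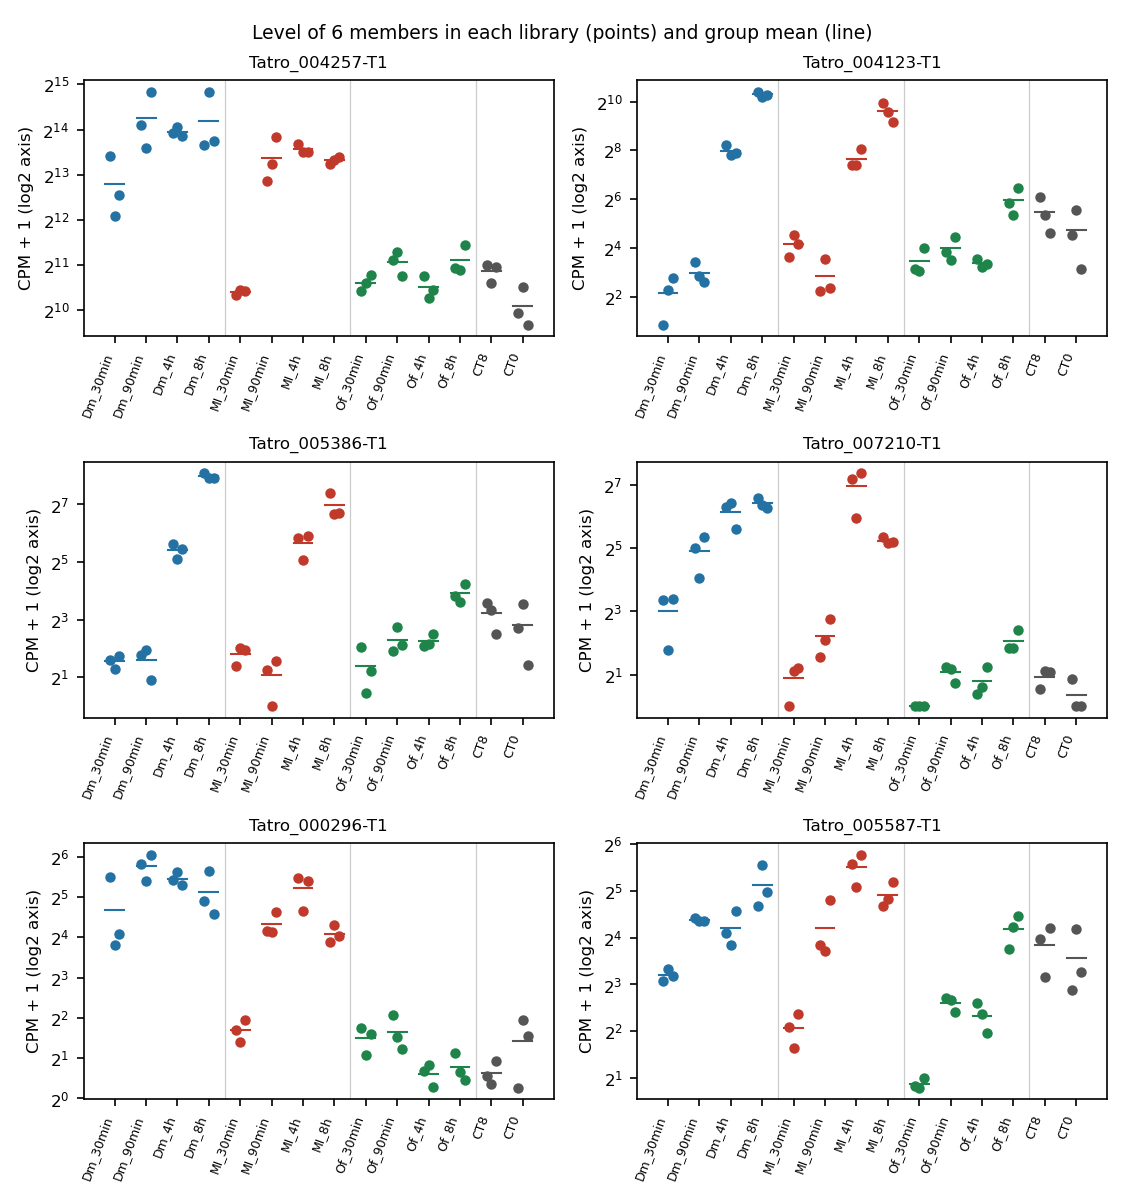
CPM + 1 on a log2 axis for 6 members in each library (points, replicates 1 to 3 from left to right) with the mean of the group (line). Tatro_004257 and Tatro_000296 are already above the controls at 30 min after larvae and are high from 90 min after injury, Tatro_004123 and Tatro_005386 are higher at 4 h and higher still at 8 h, Tatro_007210 is higher at 90 min after larvae than after injury, and Tatro_005587 is at 0.739 to 1.01 CPM in Of_30min. The rule limited the level of members in MI_30min but not in Dm_30min.

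Tatro_000296, already described at 4 h, had 55.3, 41.2 and 65.5 CPM in Dm_90min against 44.4, 12.9 and 16.0 in Dm_30min (1.07 ± 0.29, adjusted p 0.00792), and stood at 29.0, 49.5 and 23.0 CPM in Dm_8h. This rise was lost without replicate 2 (0.77, adjusted p 0.0663) or 3 (0.84, 0.0693) of Dm_30min and was 1.84 without its replicate 1. It was also lost with only the compared groups in the fit (0.156). Its highest larval mean was at 90 min. Tatro_004448 had 143, 178 and 344 CPM in Dm_90min, 74.4, 93.6 and 108 in Dm_4h, 85.4, 76.3 and 111 in Dm_8h and 34.5 to 45.4 in CT8. It fell by 1.21 ± 0.33 between Dm_90min and Dm_4h (adjusted p 0.00552). The fall rested on the 344 CPM of replicate 3 of Dm_90min, without which the change was -0.81 with an adjusted p of 0.0726. Tatro_006515 had 2.77, 1.24 and 6.93 CPM in Dm_4h against 9.98, 12.0 and 31.5 in Dm_90min (-1.86 ± 0.62, adjusted p 0.0241), and that call was lost without replicate 3 of Dm_90min (-1.44, adjusted p 0.111), replicate 1 (-1.68, 0.0853) or replicate 2 (-1.54, 0.0841) of Dm_4h, and was lost with DESeq2 (0.055). Without replicate 3 of Dm_4h the change was -2.83.

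Tatro_006515 also shows that membership can rest on 1 library. In Dm_8h it had 0, 14.1 and 0.415 CPM, in MI_8h 8.64, 6.71 and 14.2 CPM, and in CT8 2.54, 1.14 and 1.13 CPM. Only replicate 2 of Dm_8h, a shallow library, lay above CT8 after larvae. It was higher in MI_4h (13.9, 19.3 and 18.2 CPM) than in any Dm_4h library, with a log2 difference of Dm_4h over MI_4h of -2.06 ± 0.58 (adjusted p 0.0251). That call was lost without replicate 1 (-1.88, adjusted p 0.13) or 2 (-1.74, 0.0883) of Dm_4h or replicate 2 (-1.97, 0.0608) or 3 (-2.03, 0.0507) of MI_4h, and with DESeq2 (0.138). Without replicate 3 of Dm_4h it was -3.04.

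Larvae and injury were set against each other directly at 90 min and at 4 h. At 90 min 19 members were higher in Dm_90min than in MI_90min (6.73% of all genes tested) and 1 was lower (4.99%), with a median of 0.35. The total of 20 was 8 without replicate 1 of MI_90min, 9 without replicate 1 of Dm_90min and 20 without the 4 shallowest libraries. At 4 h 20 members were higher in Dm_4h than in MI_4h (3.89%) and 2 were lower (2.22%), with a median of 0.20. The total of 22 was 12 without replicate 1 of MI_4h, 11 without replicate 1 of Dm_4h and 13 without replicate 3 of Dm_4h. With libraries scaled by their totals the split was 14 higher (2.1% of all genes tested) and 4 lower (3.17%), and all genes were then more often called lower than higher. Most members therefore did not pass in either comparison, which does not show that they were equal.

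Of the members with at least 10 CPM, Tatro_002588 and Tatro_011346 had the largest excess after larvae at 4 h without overlap. Scarcer members could differ more, such as Tatro_003102, named after its values were seen, with 4.63 ± 1.23 CPM in Dm_4h and 0.374 ± 0.318 CPM in MI_4h (SD, n = 3 each; log2 difference 3.55 ± 0.57, adjusted p 7.54e-05 in the edgeR fit). The difference was 4.42 without replicate 3 of MI_4h. Tatro_002588 had 112, 94.0 and 126 CPM in Dm_4h against 39.0, 36.6 and 44.6 in MI_4h, a log2 difference of 1.47 ± 0.19 (adjusted p 3.3e-06). At 8 h its levels overlapped, with 91.9, 137 and 100 CPM in Dm_8h and 126, 124 and 97.0 CPM in MI_8h, and it had risen between 90 min and 4 h in both courses (2.28 ± 0.22 after larvae and 2.03 ± 0.24 after injury, adjusted p 1.3e-09 and 9.74e-08). Tatro_011346 had 11.1, 9.11 and 15.8 CPM in Dm_4h against 5.05, 3.75 and 3.71 in MI_4h (1.56 ± 0.26, adjusted p 0.000148). Its MI_4h libraries overlapped those of Of_4h, which held 5.63, 4.46 and 4.00 CPM.

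A single member was lower after larvae than after injury at 90 min. Tatro_000453 had 4.56, 4.09 and 6.80 CPM in Dm_90min against 6.84, 10.4 and 13.9 in MI_90min (-1.11 ± 0.31, adjusted p 0.0157). Its groups met at almost the same level, and the call was lost without replicate 3 of MI_90min (-0.81, adjusted p 0.112), replicate 1 (-1.06, 0.0713) or replicate 2 (-0.99, 0.0606) of Dm_90min, and with only the compared groups in the fit (0.182). Its neighbour by ID, Tatro_000454, carries the text of an F-box domain, found in proteins that recruit others for ubiquitin tagging.

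The change between 90 min and 4 h itself differed between larvae and injury for 7 members by the interaction term of the fit. It was larger after larvae for 2 (1.07% of all genes tested) and smaller for 5 (1.97%), shares near those of all genes, and with library totals as scaling 1 was larger (0.555%) and 5 were smaller (1.32%). With only the 4 compared groups in the fit, Tatro_007210 and Tatro_007707 stayed called and the other 5 were lost (adjusted p 0.0744 for Tatro_007211, 0.112 for Tatro_005587, 0.15 for Tatro_005653, 0.182 for Tatro_000412 and 0.257 for Tatro_002090). The total was 3 without replicate 1 of MI_90min or of MI_4h, 4 without replicate 2 of MI_90min, replicate 3 of Dm_90min or replicate 1 or 3 of Dm_4h, 13 without replicate 3 of MI_90min, and 5 without the 4 shallowest libraries.

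The strongest of these was Tatro_007210, whose ID neighbour Tatro_007211 is also among the 7. Tatro_007210 had 9.24, 2.40 and 9.45 CPM in Dm_30min, 31.5, 15.9 and 40.0 in Dm_90min, 77.9, 86.6 and 47.8 in Dm_4h and 95.7, 82.3 and 77.6 in Dm_8h. After injury it had 0, 1.18 and 1.32 CPM at 30 min, 1.95, 3.23 and 5.85 at 90 min, 146, 61.6 and 166 at 4 h and 39.7, 35.2 and 36.1 at 8 h. Larval libraries were thus above injured ones at 30 and 90 min and at 8 h, and the groups overlapped at 4 h. The rule limited MI_30min but not Dm_30min, so the order at 30 min follows partly from the choice of members. At 90 min Dm_90min exceeded MI_90min by 2.90 ± 0.45 (adjusted p 5.2e-05). The change between 90 min and 4 h was 1.36 ± 0.32 after larvae and 5.10 ± 0.39 after injury, a difference of -3.73 ± 0.53 (adjusted p 9.14e-05), which was called under every alternative run.

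Tatro_007211 showed the same order at a higher resting level. It had 55.6, 36.6 and 77.4 CPM in Dm_90min against 20.9, 21.6 and 26.8 in MI_90min (1.21 ± 0.27, adjusted p 0.00289), 116, 114 and 74.6 CPM in Dm_4h against 184, 91.0 and 211 in MI_4h, and 17.8 to 18.8 CPM in CT8. The course difference was -1.89 ± 0.35 (adjusted p 0.00216). All Of libraries held 15.1 to 27.2 CPM, so unlike Tatro_007210 it was well detected after O. folsomi and in the untreated CT8. The ID before this pair, Tatro_007209, carries the text of an alcohol dehydrogenase and is no member.

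Tatro_007707 had its larval peak at 90 min. It had 16.3, 13.8 and 23.0 CPM in Dm_90min against 5.08, 3.23 and 3.66 in MI_90min (2.00 ± 0.33, adjusted p 0.000128), and 7.27, 8.28 and 7.41 CPM in Dm_4h against 12.7, 8.56 and 8.71 in MI_4h. It fell by 1.12 ± 0.31 between 90 min and 4 h after larvae and rose by 1.26 ± 0.33 after injury (adjusted p 0.00696 and 0.00399), a difference of -2.39 ± 0.46 (adjusted p 0.00311) called under every alternative run. CT0 held 10.4, 10.6 and 15.7 CPM, so injured libraries at 90 min lay below the early control. Its ID neighbour Tatro_007706 carries the text of an F-box domain.

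Tatro_005587 and Tatro_000412 rose between 90 min and 4 h after injury (1.34 ± 0.25 and 1.52 ± 0.28, adjusted p 0.000125 and 0.000101) and did not pass after larvae (adjusted p 0.751 and 0.994). Tatro_005587 had 16.3, 13.2 and 22.7 CPM in Dm_4h against 46.9, 33.0 and 53.7 in MI_4h (-1.31 ± 0.26, adjusted p 0.000941), while 90 min libraries held 19.4 to 20.4 CPM after larvae and 12.2 to 26.8 CPM after injury. Its course difference was -1.49 ± 0.38 (adjusted p 0.0274), lost without replicate 1 or 2 of MI_90min, 1 or 3 of MI_4h, or 1 or 2 of Dm_4h (-1.29 to -1.46, adjusted p 0.0569 to 0.105). For Tatro_000412 the course difference was -1.52 ± 0.42 (adjusted p 0.0369), with 4.06 to 7.45 CPM in Dm_4h and 8.15 to 11.5 CPM in MI_4h. It was lost without replicate 1 or 2 of MI_90min, 1 of MI_4h, 1 or 3 of Dm_90min, or 1 or 3 of Dm_4h (-1.24 to -1.63, adjusted p 0.05 to 0.142).

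Tatro_005653 and Tatro_002090 went the other way. Tatro_005653 had 117, 145 and 218 CPM in Dm_4h against 37.1, 38.1 and 20.4 in Dm_90min (2.24 ± 0.28, adjusted p 2.64e-07), and 59.0, 141 and 104 CPM in MI_4h against 52.7, 56.4 and 56.8 in MI_90min (0.88 ± 0.26, adjusted p 0.00907; 0.57 and 0.116 without replicate 2 of MI_4h). The rise was steeper after larvae, by 1.36 ± 0.38 (adjusted p 0.0381), but this call was lost without any 1 of replicates 1 and 2 of MI_90min, 1 and 3 of MI_4h, 3 of Dm_90min or 3 of Dm_4h (1.05 to 1.39, adjusted p 0.0647 to 0.137), and without the 4 shallowest libraries (1.20, 0.0805). Undamaged mycelium was high early, with 118, 156 and 131 CPM in CT0 against 57.0, 50.4 and 51.6 in CT8. MI_30min lay 0.19 above CT0 on the log2(CPM + 1) scale, but Dm_30min averaged 42.2 CPM. Both rises between 90 min and 4 h thus began below CT0. The ID neighbour Tatro_005654 carries the text of a glycoside hydrolase of family 37, a family of trehalases.

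Tatro_002090 had 17.3, 4.97 and 21.0 CPM in Dm_4h against 2.82, 8.44 and 7.65 in Dm_90min, and 6.46, 5.53 and 8.89 CPM in MI_4h against 9.18, 4.31 and 16.8 in MI_90min. The course difference was 1.96 ± 0.54 (adjusted p 0.0381), and the replicates overlapped in both courses. This call was lost in 8 of 12 fits that left out 1 library (without replicate 1 or 3 of MI_90min, 1 or 2 of MI_4h, 1 or 3 of Dm_90min, and 1 or 3 of Dm_4h), with values of 1.41 to 2.06 and adjusted p 0.0546 to 0.151. It was also lost with DESeq2 (adjusted p 0.0644), with library totals as scaling (0.0538) and without the 4 shallowest libraries (0.0583).

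After O. folsomi a smaller number of members rose, and late. In Of_8h 24 members were higher than in Of_30min (3.44% of all genes tested) and 1 was lower (1.85%), with a median of 0.73, or 0.69 with the 13 members without a count in 1 of the groups set to their bound. The total of 25 was 14 without replicate 1 of Of_30min, 10 without its replicate 2, 14 without replicate 3 of Of_8h and 18 without the 4 shallowest libraries. Scaling by library totals gave 38 higher and 0 lower, while of all genes 6.7% were then higher and 0.674% lower, and the median of all genes moved by over 0.1, to 0.12. At an unadjusted p under 0.05, 56 members were higher (9.52% of all genes tested) and 3 lower (8.66%).

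Among called members with at least 10 CPM in Of_8h, the largest rises after O. folsomi were those of Tatro_005587 and Tatro_005386. Scarcer members could rise more, such as Tatro_006485, with 2.41 CPM in Of_8h and no count in Of_30min (adjusted p 0.00644 in the edgeR fit). Tatro_005587 had 12.6, 17.9 and 21.0 CPM in Of_8h against 0.788, 0.739 and 1.01 in Of_30min (4.24 ± 0.55, adjusted p 5.65e-06). CT8 held 14.8, 7.98 and 17.3 CPM and CT0 6.42, 17.3 and 8.59 CPM, so Of_8h overlapped the late control and Of_30min lay below the early one. Tatro_005386 had 13.1, 11.2 and 17.8 CPM in Of_8h against 3.15, 0.369 and 1.35 in Of_30min (3.37 ± 0.57, adjusted p 0.00023), with 11.1, 9.12 and 4.73 CPM in CT8. Tatro_004123 rose as well (2.52 ± 0.45, adjusted p 0.000449), to 39.5 to 87.1 CPM in Of_8h. The 1 member that fell was Tatro_005653 (56.3, 39.8 and 78.7 CPM in Of_8h against 105, 119 and 99.9 in Of_30min, -0.91 ± 0.27, adjusted p 0.0381), and that call was lost without any 1 of the 3 Of_30min libraries or of replicates 1 and 2 of Of_8h (-0.67 to -0.94, adjusted p 0.0762 to 0.248) and with library totals as scaling (-0.75, adjusted p 0.0783).

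The controls chose the members, so levels against them are given without a test. The median member was 0.19 above CT8 in Of_8h and 0.336 below it in Of_4h, against 1.05 above it in Dm_4h and 0.759 above it in MI_4h. At least 1 above CT8 were 85 members in Dm_4h, 62 in MI_4h, 1 in Of_4h and 4 in Of_8h, against 2.32%, 1.85%, 0.0326% and 0.0761% of all tested genes. The 4 in Of_8h were Tatro_007210, Tatro_002353, Tatro_002090 and Tatro_002354, with mean levels of 3.19, 11.6, 3.63 and 3.35 CPM against 0.909, 5.02, 1.24 and 1.16 CPM in CT8, and the 1 in Of_4h was Tatro_002353, all named after their values were seen. Between the controls the median member was 0.07 higher in CT8 than in CT0.

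Some members gained most of their level after 4 h. From 4 h to 8 h the median member gained 0.868 after larvae, 0.706 after injury and 0.575 after O. folsomi, against -0.020, -0.005 and -0.021 for all tested genes. These values use the 8 h groups of the rule and are a description. A gain of at least 1 was seen in 73 members after larvae and 57 after injury, 44 of them shared, and in 24 after O. folsomi, against 1.62%, 1.34% and 1% of all tested genes. The largest, named after its values were seen, was Tatro_011619, with 21.3, 13.4 and 26.2 CPM in Dm_8h against 0, 0 and 0.239 in Dm_4h, and 23.6, 16.1 and 6.76 CPM in MI_8h against 0, 0 and 0.556 in MI_4h. CT8 held 2.54, 3.42 and 0.450 CPM, above every Dm_4h library, while 1 MI_4h library lay above the lowest of CT8.

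Tatro_004450 and Tatro_004451 showed the same late step and have consecutive ID numbers. Tatro_004450 had 101, 97.7 and 83.2 CPM in Dm_8h against 8.31, 6.63 and 5.50 in Dm_4h, and 72.1, 51.2 and 39.6 CPM in MI_8h against 3.03, 4.46 and 7.97 in MI_4h. Tatro_004451 had 52.2, 58.2 and 51.0 CPM in Dm_8h against 7.27, 3.31 and 5.02 in Dm_4h, and no count in Dm_90min, so that Dm_4h was at least 16.8-fold higher than a floor of 3 counts over the Dm_90min group. Tatro_004576 had 194, 160 and 166 CPM in Dm_8h and 132, 86.0 and 89.7 CPM in MI_8h, against 7.15, 4.84 and 4.05 CPM in CT8. It had already risen by 4 h, by 3.20 ± 0.42 after larvae and 3.57 ± 0.43 after injury (adjusted p 7.38e-07 and 1.84e-07). These were 3.88 without replicate 2 of Dm_90min and 4.17 without replicate 3 of MI_90min.

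Some members had ID numbers next to each other. In 18 runs with gaps of at most 2, 45 members lay together, and 38 members had an ID 1 away from another member. Of the 306 genes with an ID 1 away from a member's, these 38 are 12.4%, while members are 1.37% of all genes, which is a description and was not tested. The order of the IDs along the genome is not annotated in the sources used here. The longest run was of 7, Tatro_006946 to Tatro_006952, all scarce. Their summed level was 1.92 to 3.41 CPM in Dm_30min, 3.40 to 6.14 in Dm_90min, 17.9 to 31.5 in Dm_4h and 62.3 to 135 in Dm_8h. After injury it was 2.27 to 4.97, 2.44 to 2.93, 13.4 to 26.3 and 43.1 to 53.3 CPM at the same times. After O. folsomi it was 1.84 to 5.80 CPM at all times, and in CT8 1.58 to 5.07 and in CT0 2.79 to 15.3 CPM. The summed run was thus low in every library before 4 h after damage except 1 CT0 library, the shallow replicate 2.

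**Figure D5:**
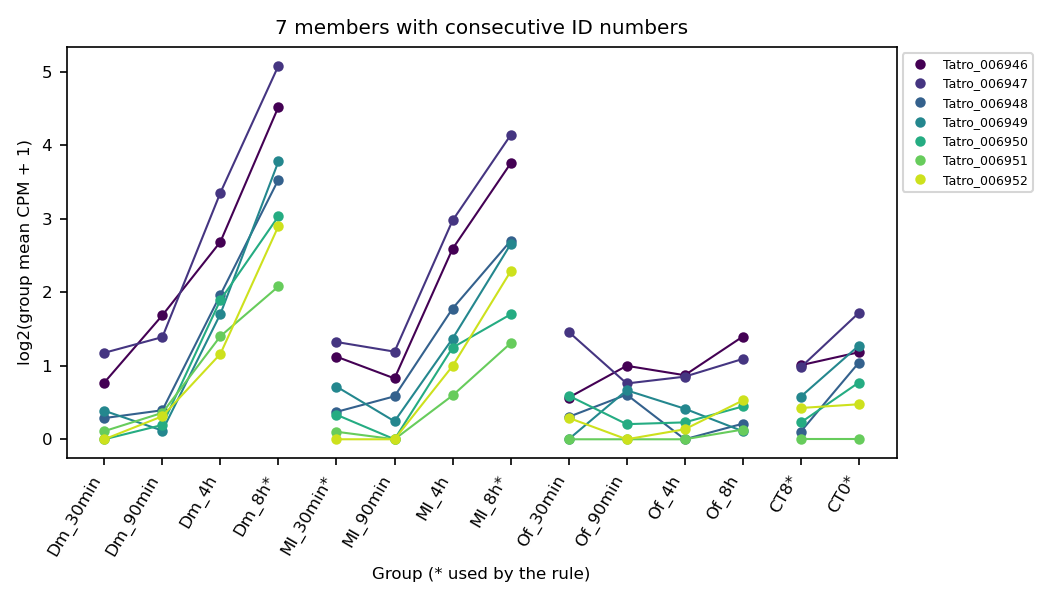
Level of the 7 members Tatro_006946 to Tatro_006952 by group, as log2(group mean CPM + 1), with lines joining the times of a treatment and the controls. Asterisks mark the groups that the rule used. All 7 climb from 90 min to 8 h after larvae and after injury, and none reaches 2 on this scale in an Of or control group.

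Within the run Tatro_006947 was the most abundant. It had 10.0, 10.8 and 6.93 CPM in Dm_4h against 2.82, 2.05 and 0 in Dm_90min (2.07 ± 0.43, adjusted p 0.000442), and 7.47, 4.28 and 8.89 CPM in MI_4h against 1.56, 1.08 and 1.22 in MI_90min (2.34 ± 0.44, adjusted p 0.000125). Tatro_006946 rose in both courses too (1.34 ± 0.45 after larvae and 2.70 ± 0.49 after injury, adjusted p 0.0236 and 8.26e-05), as did Tatro_006948 (adjusted p 0.00714 and 0.0072), Tatro_006949 (0.0265 and 0.0497) and Tatro_006950 (0.00981 and 0.00602). Tatro_006950 had no count in MI_90min, and MI_4h was at least 5.5-fold higher than a floor of 3 counts over that group. These scarce genes depended on single libraries. The larval call on Tatro_006946 was lost without replicate 1 of Dm_90min (0.94, adjusted p 0.181) or 1 (1.22, 0.0855) or 2 (1.29, 0.0512) of Dm_4h, and the injury call on Tatro_006948 without replicate 3 of MI_90min (1.65, 0.0516), with 2.92 without its replicate 1. Tatro_006949 lost its larval call without replicate 1 or 3 of Dm_90min or 2 of Dm_4h (3.23 to 3.82, adjusted p 0.0523 to 0.12) and its injury call without any 1 of the MI_90min libraries or replicate 1 or 3 of MI_4h (2.49 to 3.50, 0.0633 to 0.157), and its larval change was 5.99 without replicate 2 of Dm_90min. Tatro_006950 lost its larval call without replicate 2 of Dm_90min (2.79, adjusted p 0.0563) and had 6.24 without its replicate 1. Tatro_006952, with 0.360 CPM on average over the 9 groups that the rule did not use, rose after injury (adjusted p 0.00753) and did not pass after larvae (adjusted p 0.13). Tatro_006951, with no count in MI_90min, Of_30min, Of_90min, Of_4h, CT8 or CT0 and 1.87 to 4.02 CPM in Dm_8h, was the member too scarce to be tested.

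Genes with a product text that met the same numeric rule numbered 21 of 2865 (0.733%). They were more abundant, with a median of 6.13 in Dm_4h and 5.46 in MI_4h on the log2(CPM + 1) scale, against 4.54 in Of_4h. Between 90 min and 4 h 16 of the 21 rose after larvae (13.3% of all genes tested did) and 17 after injury (13.6%). In each course 1 fell (13.3% and 13.1% of all). The 5 most abundant carried the texts of a fungal transcription factor domain (Tatro_004118), an AAA+ ATPase domain (Tatro_003040), a GTP binding domain (Tatro_004599), an FAD/NAD(P)-binding domain (Tatro_001564) and an inositol monophosphatase (Tatro_002798). Ankyrin repeats, which bind other proteins, were the most frequent text, in 4 of the 21. Tatro_004118 had 421 ± 68.7 CPM in Dm_4h and 547 ± 125 in MI_4h, against 100 ± 7.67 in Of_4h (SD, n = 3 each), with log2 fold changes from Of_4h of 2.07 ± 0.28 and 2.45 ± 0.29 (adjusted p 8.98e-07 and 2.95e-08). Only 2 members had an ID next to one of these 21.

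One of the 21, Tatro_007246, carries the text of a cerato-ulmin hydrophobin. Hydrophobins are small secreted proteins that coat aerial hyphae and spores and make them water-repellent. It was the only gene found among texts of conidia, spore walls and hydrophobins, and it was at 0 in 1 library. Its level was 58.4 to 75.5 CPM in Dm_4h, 204 to 268 in Dm_8h, 52.8 to 96.0 in MI_4h and 106 to 161 in MI_8h, against 10.4 to 25.4 in Of_8h, 1.05 to 2.96 in Of_4h, 5.13 to 10.6 in CT8 and 1.72 to 3.84 in CT0. In Dm_30min, MI_30min and MI_90min it did not exceed 2.44 CPM. It met the same numeric rule, so its agreement with the members in Dm_8h, MI_8h, MI_30min, CT8 and CT0 was set by that choice. Among groups the rule did not use, it was, like most members, higher in Dm_4h and MI_4h than in Of_4h. The part of aerial hyphae or spores in the members' levels was not tested.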

How the data were processed

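The authors deposited raw, unnormalized read counts per transcript model, and 1 model was kept for each of 11786 genes, since the 204 genes with several models held identical counts in all of them. Per the submitters' processing notes the tools were FastQC 0.11.6, HISAT2 2.1.0 and HTSeq 0.14.1, and per the labels' protocols RNA was extracted with TRIzol and libraries made with a stranded total RNA kit. Build, annotation and strand setting were not given in the sources used here, which leaves genes that overlap or resemble each other closely uncertain. The authors' deposited tables of log2 fold changes gave product texts and a check of columns: their 8 h larval values differed by 0.0487 on average (log2) from those of the Dm_8h columns against both controls, and by 1.16 from the Of_8h columns.

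In R 4.3.3, edgeR 4.0.16 (default expression filter, 9193 genes, TMM factors) was run as a quasi-likelihood fit over all 42 libraries, each group with its own coefficient. P-values were adjusted by Benjamini-Hochberg over all genes within a comparison, and called under 0.05. The SE is the absolute log2 change over the square root of F. The 9 comparisons set no group that chose the members against another, but those groups entered the expression filter and the shared estimate of spread. Scarce members could thus pass the filter through their 8 h levels, such as Tatro_008973 with 0.0859 CPM on average over the other 9 groups. With only the compared groups in filter and fit, 111 members were higher in Dm_4h than in Of_4h (1503 of all genes). In MI_4h 110 were (1840 of all). DESeq2 1.42.0, other scalings, no filter, a pseudocount of 0.5, a replicate block, only the compared groups and leaving out libraries were alternatives. The scripts were tested on simulated data. Intervals and floors (3 counts) cover counting error only.

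Members named were the 8 most abundant, the 2 largest rises and falls per comparison with at least 10 CPM and no overlap between libraries (for the course difference no overlap was asked), those at the edge of the rule, and the longest ID run. Others are said to be named after their values were seen, or belong to the 7 course differences. The members and lists were chosen with earlier results of these data known. Same-numbered replicates correlated by -0.144 to 0.155 in their deviations from group means, so the numbers pair no samples. No column of values was left unused.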

Additional observations from a re-analysis of the deposited data

Results flagged for a closer look

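For 7 members the change between 90 min and 4 h after larvae differed from that after injury, tested as an interaction in edgeR's quasi-likelihood fit with Benjamini-Hochberg adjustment over all genes. It was larger after larvae for 2 (1.07% of all genes tested) and smaller for 5 (1.97%), shares near those of all genes. On the log2 scale, larvae minus injury, the difference was -3.73 for Tatro_007210 (adjusted p 9.14e-05) and -1.89 for Tatro_007211 (adjusted p 0.00216), whose IDs are consecutive. It was -2.39 for Tatro_007707 (adjusted p 0.00311), the member that fell after larvae and rose after injury. It was -1.49 for Tatro_005587 (adjusted p 0.0274) and -1.52 for Tatro_000412 (adjusted p 0.0369). The difference was 1.36 for Tatro_005653 (adjusted p 0.0381) and 1.96 for Tatro_002090 (adjusted p 0.0381), both steeper after larvae. The calls on the last 4 of these were lost when some single libraries were left out. With only the 4 compared groups in the fit, these 4 and Tatro_007211 (adjusted p 0.0744) lost their calls.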

How the results depend on the processing

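No result changed direction under any alternative run. Most counts of called members stayed within 1.5 times those reported. Beyond that, scaling by library totals gave 38 called between Of_8h and Of_30min (25 as reported), and fitting only the compared groups gave 40 for that comparison, 12 between Dm_90min and Dm_30min (49), 4 between Dm_90min and MI_90min (20) and 2 for the course difference (7). These last fits estimate the spread from fewer samples, and calls over all genes moved the same way. For Of_8h over Of_30min 792 genes were then higher and 702 lower (316 and 170 in the main fit). For Dm_90min over Dm_30min the numbers were 206 and 76 (974 and 769), and for Dm_90min over MI_90min 50 and 27 (619 and 459). For the course difference they were 5 and 19 (98 and 181). Leaving out 1 library gave 71 to 98 for the injury course, 73 to 83 for the larval course, 25 to 38 for Dm_90min over Dm_30min, 10 to 23 for Of_8h over Of_30min, 8 to 26 for Dm_90min over MI_90min, 11 to 19 for Dm_4h over MI_4h, 111 to 123 for MI_4h over Of_4h, 116 to 125 for Dm_4h over Of_4h and 3 to 13 for the course difference. The replicate block gave 96, 86, 51, 29, 20, 23, 125, 130 and 7 called, in the order of the comparisons just listed, none moved by over 1.5 times, and the numbers do not pair the samples. Library totals also moved the median of all genes to 0.119 in MI_4h over Of_4h.
The rule took 167 members with DESeq2's size factors, 187 with library totals, 201 with a pseudocount of 0.5, 157 without the 4 shallowest libraries (chosen after seeing the data) and 158 to 186 without 1 library. Of the recomputed values for named genes, 855 kept their call and 102 lost it. Low counts limit scarce members most.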
